A study of Mus musculus with 16 samples.

Results

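The CD29 libraries were made from the sorted femur fraction whose label names CD29 alone, and CD29 is integrin beta-1, an adhesion receptor subunit encoded by the nuclear gene Itgb1. There were 2 of them, replicates 1 and 2, among 16 libraries of the series. Each was set against the 6 other skeletal fractions of the same replicate number, labelled Thy, 6C3, Thy_6C3, CD105, CD24 and CD24_CD29, which gave 12 libraries in all, and the 2 CD45 libraries were left out of the comparison. All groups came from femurs of PolG D257A/D257A mice aged 3 months. The sorted cells were tagmented with Tn5, the transposase of bulk ATAC-seq, and read as 100 bp pairs on a NovaSeq6000. Every library carried the same PolG genotype, so no fraction with an intact polymerase entered any comparison. The labels give neither the gates nor the number of mice behind a library, and they do not say whether replicates came from separate animals, so the p-values speak only of differences among these libraries, part of which may be technical. The tables hold counts of each base at mitochondrial positions only, so the label CD29 could not be checked against Itgb1.

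PolG encodes the catalytic subunit of the polymerase that copies mitochondrial DNA, and D257A disables the proofreading of that enzyme, so base errors accumulate as the genome is copied. A cell holds many copies of the mitochondrial genome, and a mutation carried by only some of them is called heteroplasmic. Cells that descend from a common ancestor inherit its mixture of copies, which is why heteroplasmic alleles are used as natural lineage marks. The genome encodes subunits of respiratory complexes I, III, IV and V, 22 transfer RNAs and 2 ribosomal RNAs, and its control region holds the start sites of replication and transcription.

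An allele is written as reference base, position and changed base on the strand of the deposited tables, and its level is the allele fraction, the count of that base over the coverage of the position. The alleles below carry the differences described later, and each is shown in 21 bases of the GRCm38 mitochondrial sequence, plus strand, with the base that changes in capitals.

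C12428T, in ND5 (chrM:12418-12438), the allele furthest above the range of the other fractions in CD29 of replicate 1 among those shared by all: aatttggcctCcacccatgac
T14833C, in CYTB (chrM:14823-14843), the highest allele of CD29 replicate 1 that stayed under 1% elsewhere: aaagatatccTaggtatccta
T3200C, in ND1 (chrM:3190-3210), the highest such allele of CD29 replicate 2: ctattatcctTttatcagttc
G12178A, in ND5 (chrM:12168-12188), an allele of CD29 replicate 2 that was low elsewhere: ggctgagaagGggtgggaatt
C1452T, in mt-Rnr2 (chrM:1442-1462), the allele with the smallest p in the model of all alleles: agctggttacCcaaaaaatga
C609T, in mt-Rnr1 (chrM:599-619), the allele furthest below the other fractions in CD29 of replicate 2: tactttatatCcatctagagg
C4093T, in ND2 (chrM:4083-4103), the allele furthest below them in CD29 of replicate 1: caaaatacttCgtcacacaag
G5026A, in TrnA (chrM:5016-5036), also below them in CD29 of replicate 1: gataaggactGtaagacttca

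A stretch of 62 bases of the control region (chrM:16094-16155) carried 17 alleles that every one of the 14 libraries held at 1% or more. Capitals mark the 15 positions at which they lay: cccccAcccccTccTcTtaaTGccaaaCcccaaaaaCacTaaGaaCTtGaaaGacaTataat

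The CD29 libraries were the deepest of their sets. Mean coverage per position was 77252 counts in CD29 replicate 1, against 13534, 24686 and 39931 (lowest, median and highest) in the other 6 libraries of replicate 1. In replicate 2 it was 36822 counts in CD29, against 6569, 18618 and 30188 in the others. CD29 was thus above every other library in both replicates, and on the log2 scale it averaged 15.70 ± 0.76 (SD, n = 2), against 14.28 ± 0.69 in the others (SD, n = 12). The difference of 1.43 had an exact two-sided permutation p of 0.0408 over the 49 ways of taking 1 library per replicate as CD29, whose smallest possible p is 0.0204, and adjusted p was 0.327 over 8 measures per library. When the 7 fractions were relabelled as wholes, the exact permutation p was 0.286. A mean coverage of this size sets the limit that a count of 0 allows at 0.00388% and 0.00815% in the CD29 libraries. These limits, and the intervals below, cover counting error only, since the reads carry no molecular identifiers.

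Coverage was uneven along the genome in CD29 and in the other fractions. Relative to the library mean, complex IV genes had 0.930 and 0.935 of the coverage in CD29 replicates 1 and 2, against 0.943 to 1.09 and 0.996 to 1.07 in the others, so CD29 was the lowest library in both replicates. CYTB, the only complex III gene, had 1.52 and 1.46 in CD29, against 1.09 to 1.66 and 1.10 to 1.36, which placed CD29 within the others in replicate 1 and above them in replicate 2. No test was run on these coverage ratios.

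Thy replicate 2 stood apart from all other libraries, and results that rest on it are given with and without it. It had 2530 alleles at 1% or more, a transition share of 3.79% among them, and A>C changes at 76.5 per 10000 sites, against 9.63 and 9.32 in the CD29 libraries. CD24_CD29 replicate 1 was also far from its set in allele number, with 280 alleles at 1% or more, and 6C3 replicate 1 was far from its set in T>C changes.

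The overall mutation load of CD29 lay inside the spread of the other fractions. Load is the summed non-reference fraction averaged over all 16299 positions, and it was 0.451% in CD29, against 0.405%, 0.455% and 0.484% (lowest, median and highest) in the other libraries of replicate 1. In replicate 2 it was 0.466% in CD29, against 0.385%, 0.456% and 1.11% in the others, where the highest was Thy. The mean difference of -0.0411 percentage points gave an exact permutation p of 0.735 (adjusted p = 0.837), and without Thy replicate 2 it was 0.0154. CD29 was therefore neither above nor below the other fractions in load in either replicate.

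Alleles at 1% or more, supported by at least 5 counts, are called counted alleles here. CD29 held 113 of them, against 98, 144 and 280 in the others of replicate 1, and 202, against 119, 195.5 and 2530 in the others of replicate 2 (exact permutation p = 0.592). The load carried by counted alleles was 0.0168% in CD29, against 0.0163%, 0.0198% and 0.0327%, and 0.0236% in CD29, against 0.0175%, 0.0242% and 0.216% (exact permutation p = 0.551). Without Thy replicate 2 the mean difference in log2 allele number was -0.13, against -0.45 with it, and in the load of counted alleles -0.00359, against -0.0194 percentage points. CD29 replicate 1 was second lowest by number, and CD29 replicate 2 stood near the middle. Most CD29 alleles were low: 78 and 154 lay between 1% and 2%, 23 and 42 between 2% and 5%, 9 and 4 between 5% and 10%, and 3 and 2 at 10% or more in replicates 1 and 2. Adjusted p ran from 0.327 to 0.837 over the 8 library measures, and 1 of them had an unadjusted p under 0.05.

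**Figure D1:**
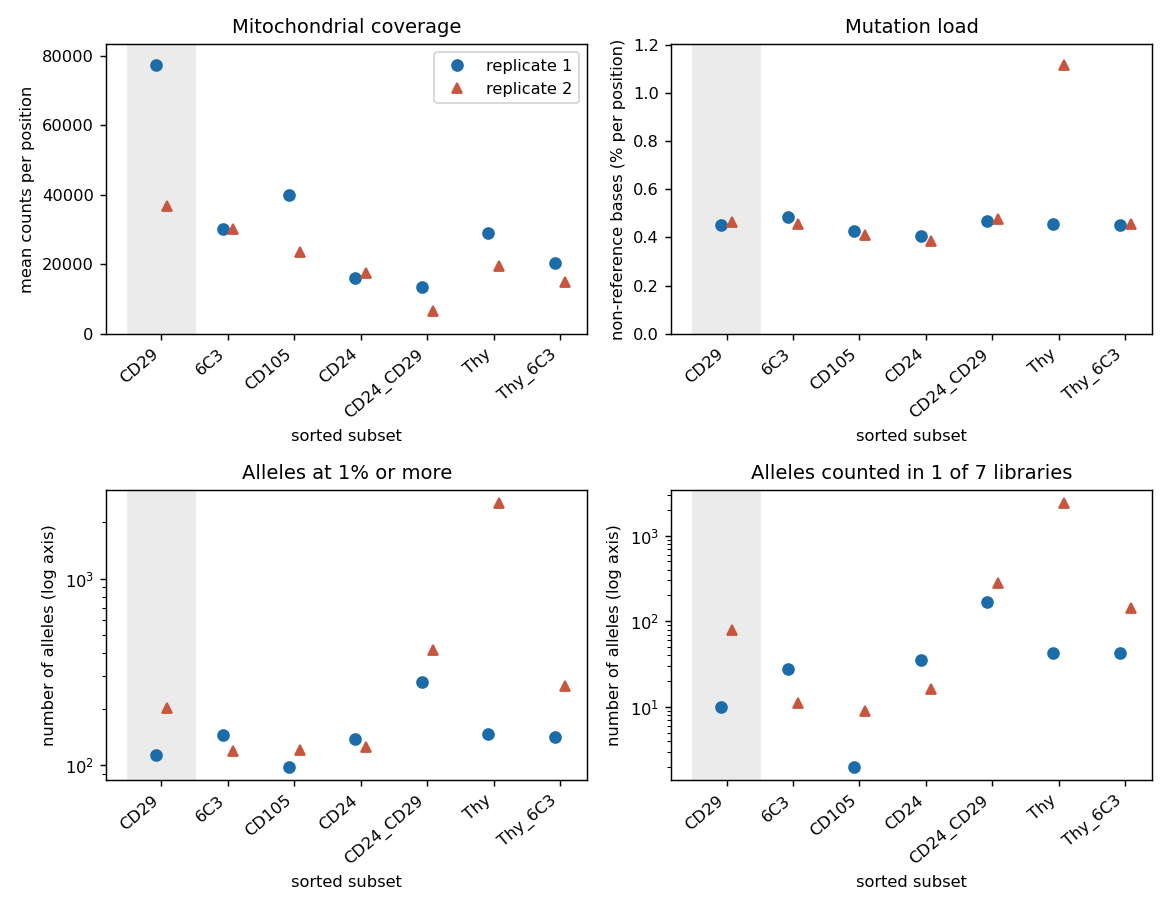
Mean coverage, mutation load, counted alleles and alleles counted in 1 of the 7 libraries of a replicate, for each sorted fraction (circles, replicate 1; triangles, replicate 2; shaded, CD29; log axes for both numbers of alleles). CD29 is highest for coverage, at 77252 and 36822 counts, and lies within the other fractions for load, at 0.451% and 0.466%, while Thy replicate 2 stands apart with a load of 1.11%.

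T>C and A>G, transitions that are complementary to each other, had the smallest exact permutation p of the 12 base changes. By mean difference from the others, A>C (-6.43 per 10000) and T>G (-5.50) were larger than T>C. C>A (-3.44), G>T (-3.54) and T>A (-2.90) were larger than A>G. In each of these larger classes Thy was the highest library of replicate 2. The mean T>C fraction was 21.2 per 10000 reference T positions in CD29, against 15.1, 16.3 and 32.1 in the others of replicate 1. In replicate 2 it was 26.5 in CD29, against 15.8, 17.3 and 26.1. In both replicates the highest value among the others was 6C3, so CD29 and 6C3 were the 2 highest fractions each time. A>G was 15.0 per 10000 reference A positions in CD29, against 11.3, 12.5 and 21.6 in replicate 1, and 17.9 in CD29, against 11.8, 12.5 and 17.8 in replicate 2, again with 6C3 as the highest of the others.

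The 2 classes did not pass the test. CD29 averaged 23.8 ± 3.79 per 10000 for T>C (SD, n = 2), against 18.8 ± 5.21 (SD, n = 12), a mean difference of 5.06 with an exact permutation p of 0.163. For A>G it averaged 16.4 ± 2.01, against 13.6 ± 3.05, a difference of 2.80 with an exact permutation p of 0.204. Adjusted p over the 12 classes was 0.653 to 0.735, and none of the 12 had an unadjusted p under 0.05.

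The higher T>C level of CD29 did not sit in a few positions. The median T>C fraction over positions was 18.1 per 10000 in CD29, against 8.39, 10.4 and 28.4 in replicate 1, and 21.7 in CD29, against 6.53, 11.9 and 22.6 in replicate 2. The medians over positions were also split by the bases on either side. The CD29 median was above that of each of the 5 fractions other than 6C3 in 16 of 16 contexts in replicate 1 and in 15 of 16 in replicate 2. It was below that of 6C3 in 16 and 11 of the 16 contexts. The ratio of CD29 to the median of those 5 fractions ran from 1.50 to 2.25 and from 1.58 to 2.98 over the contexts, so no single context carried the difference. For A>G, CD29 was above the 5 fractions in 15 and 12 contexts, with ratios of 1.38 to 1.98 and 1.26 to 2.39. Without Thy replicate 2 the mean difference was 5.27 per 10000 for T>C and 2.89 for A>G. Sites of 1 library share that library and its depth, so these counts are descriptions with no test.

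Transitions made up 55.8% of the counted alleles of CD29, against 53.5%, 58.8% and 70.0% in the others of replicate 1, and 69.8%, against 3.79%, 59.1% and 65.1% in replicate 2, where CD29 was the highest library (exact permutation p = 0.469). The mean difference was 6.68 percentage points, and 1.93 without Thy replicate 2.

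C>T and C>A lay within the other fractions. C>T was 13.1 per 10000 in CD29, against 11.5, 12.4 and 13.6 in replicate 1, and 13.4 in CD29, against 11.3, 12.6 and 14.1 in replicate 2. C>A was 29.1 in CD29, against 26.6, 30.9 and 34.7, and 27.8 in CD29, against 25.4, 30.2 and 54.9. CD29 was within the range of the others in all 4 of these comparisons.

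**Figure D2:**
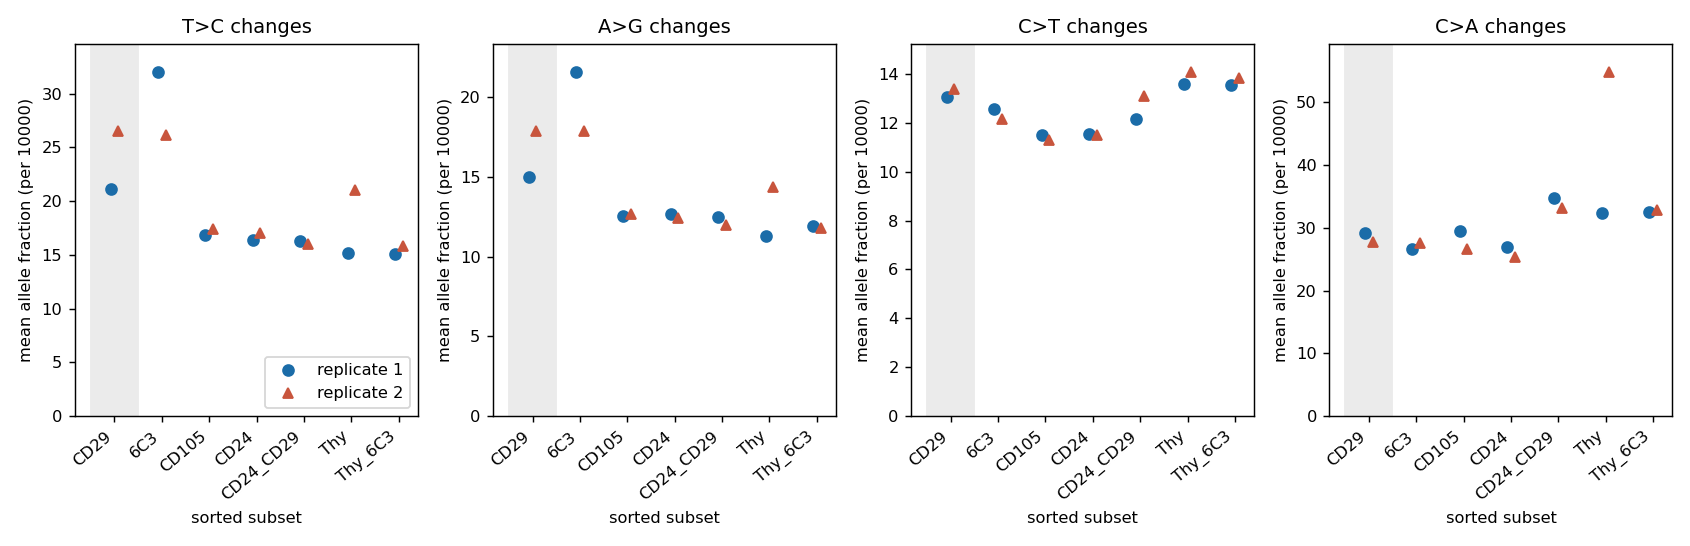
Mean allele fraction per 10000 reference positions for 4 base changes in each sorted fraction (circles, replicate 1; triangles, replicate 2; shaded, CD29). For T>C, CD29 at 21.2 and 26.5 and 6C3 at 32.1 and 26.1 lie above the other fractions of their replicate, while for C>T and C>A the CD29 libraries lie within the range.

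Most counted alleles of CD29 replicate 1 were shared with other fractions. Of its 113 counted alleles, 53 were counted in all other 6 libraries, 50 in 1 to 5 of them and 10 in none. Of the 202 counted alleles of CD29 replicate 2, 60 were counted in all other 6, 63 in 1 to 5 and 79 in none. In the reverse direction, 1 allele in each replicate was counted in all other 6 libraries and not in CD29. In replicate 1 this was G11217A (ND4 V351I), at 0.860% in CD29 (exact 95% binomial interval 0.792 to 0.931) and 1.27% to 2.19% in the others. In replicate 2 it was T6915G in TrnS1, at 0.879% in CD29 and 1.11% to 1.60% in the others. CD29 thus carried nearly the whole set of alleles that all other fractions had in common.

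The fractions nearest to CD29 were 6C3 and CD105 in both replicates, which were also among the fractions nearest to all others on average. The distance was the root mean square difference of arcsine square root fractions, which weighs low and high alleles more evenly than percentage points. In replicate 1 it was 0.0100 to CD105, 0.0114 to 6C3, 0.0134 to Thy_6C3, 0.0136 to Thy, 0.0144 to CD24 and 0.0217 to CD24_CD29. In replicate 2 it was 0.0139 to 6C3, 0.0169 to CD105, 0.0170 to CD24, 0.0225 to Thy_6C3, 0.0314 to CD24_CD29 and 0.0625 to Thy. The fraction whose label also names CD29, CD24_CD29, was therefore the farthest in replicate 1 and the farthest but Thy in replicate 2. CD29 shared 78 counted alleles with CD24_CD29 in replicate 1, which was 69.0% of the CD29 alleles and 27.9% of the CD24_CD29 alleles. In replicate 2 they shared 90, which was 44.6% of the CD29 alleles and 21.6% of the CD24_CD29 alleles. CD24_CD29 was also the shallowest fraction in both replicates, and the part of depth in these distances was not tested. The mean distance of CD29 to all other 6 fractions was 0.0141, against 0.0135, 0.0165 and 0.0228 for the others of replicate 1, and 0.0274, against 0.0247, 0.0285 and 0.0614 in replicate 2 (exact permutation p = 0.429). The lowest of these mean distances were those of CD105 in replicate 1 and 6C3 in replicate 2, and the highest were those of CD24_CD29 in replicate 1 and Thy in replicate 2.

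The highest alleles of each CD29 library were present at similar levels in all other fractions of the same replicate, and no allele was among the 5 highest in both CD29 libraries. In replicate 1 C10658T, a synonymous change in ND4 (L164L, complex I), had 18.0% in CD29 (exact interval 17.7 to 18.2), against 15.97%, 18.3% and 21.7%. G3079A (ND1 S110N, complex I) had 16.95% in CD29 (16.7 to 17.2), against 15.6%, 16.6% and 20.4%. C7953T, where ATP8 and ATP6 of complex V overlap, had 10.9% in CD29, against 7.60%, 10.6% and 14.1%. The next alleles were T2674A in mt-Rnr2, the large ribosomal RNA, at 9.63% in CD29, against 6.99% to 11.6%, and C7166T (COX2 H52Y) at 9.15%, against 7.38% to 11.3%. All 5 lay inside the range of the other fractions.

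In replicate 2 the highest allele was C11959T (ND5 S73L, complex I), with 21.9% in CD29 (21.6 to 22.3), against 18.4%, 23.1% and 24.9%. C1051T, in the transfer RNA gene TrnV, had 14.1% in CD29, against 9.81%, 15.3% and 17.9%. C14024T (ND6 C16Y) had 9.54% in CD29, against 7.27%, 9.17% and 10.5%. C3085T (ND1 S112L) followed at 7.98% in CD29, against 5.84% to 10.1%, and T13093A (ND5 M451K) at 7.18%, against 6.37% to 10.2%. These 5 were also inside the range. Some of the 10 alleles were high in both CD29 libraries: C7166T had 9.15% and 6.28% in CD29 replicates 1 and 2, C14024T had 6.00% and 9.54%, and C7953T had 10.9% and 2.35%. The other 7 were under 1% in the CD29 library of the other replicate, from 0.0518% for C1051T to 0.913% for C10658T.

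Among the alleles counted in all 7 libraries of a replicate, CD29 lay more often under the mean of the others than above it. Its fraction was under the mean of the other 6 for 40 of 53 alleles in replicate 1 and for 39 of 60 in replicate 2, with a median difference of -0.109 and -0.152 percentage points. This was not seen in CD29 alone: CD105 replicate 2 was under the mean of the others for 40 of 60 alleles, and Thy_6C3 replicate 1 had a median difference of -0.132 percentage points. It was the highest of the 7 libraries for 3 of the 53 alleles (5.66%) and 4 of the 60 (6.67%), and the lowest for 10 (18.9%) and 11 (18.3%). Over all 3475 alleles counted in any of the 14 libraries, CD29 was above all others for 185 in replicate 1 (5.32%) and 166 in replicate 2 (4.78%), and below all others for 321 (9.24%) and 601 (17.3%). The shares over the 3475 alleles depend on Thy replicate 2. Of these alleles, 2375 were counted in Thy alone in replicate 2, where CD29 could not be above all others. These shares therefore give no rate for alleles at large to compare with the shared alleles. Each of the other libraries was the lowest for 3 to 13 of the shared alleles in replicate 1 and for 7 to 10 in replicate 2, and the alleles of 1 library are not independent of each other.

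Among the shared alleles, C12428T, the synonymous ND5 change (L229L) shown above, lay furthest above the range of the other fractions in CD29 replicate 1. It had 4.42% in CD29 (4.28 to 4.56), against 2.62%, 2.92% and 3.19% in the others, and CD45 had 3.50%. The CD29 value was 1.52 percentage points above the mean of the others and clear of their range, while in replicate 2 the allele was at 0.120% in CD29 and at most 0.274% in the others. G5171A, between TrnN and TrnC where replication of the light strand starts, had 4.61% in CD29, against 1.31%, 2.81% and 6.27%, and C14024T had 6.00%, against 3.74%, 5.05% and 7.49%, both inside the range. The difference of G5171A from the mean of the others, 1.55 percentage points, was slightly larger than that of C12428T. The other alleles above the range were G9775A, a stop gain in ND3 (W106*), at 2.69% in CD29, against 1.66% to 2.57%, and C954A in mt-Rnr1, the small ribosomal RNA, at 3.14%, against 1.65% to 3.10%.

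The shared alleles furthest below the other fractions in CD29 replicate 1 were 2 synonymous changes of ND2 (complex I) and 1 transfer RNA allele. C4093T (F60F) had 5.21% in CD29 (5.04 to 5.39), against 5.34%, 7.42% and 8.21%, which was 1.91 percentage points under the mean of the others. C4216T (A101A) had 5.32% in CD29, against 5.40%, 7.05% and 8.01%. G5026A, in the alanine transfer RNA gene TrnA, had 2.59% in CD29 (2.46 to 2.72), against 3.30%, 3.88% and 5.58%. All 3 were under every other fraction of replicate 1, the ND2 alleles by a small margin.

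In replicate 2 the shared allele furthest above the other fractions was A11708G in TrnL2, a leucine transfer RNA gene, with 3.29% in CD29 (3.12 to 3.46), against 1.32%, 2.24% and 2.67%. C11260T (ND4 A365V) had 2.36% in CD29, against 1.01%, 1.27% and 2.09%. T10913G (ND4 I249M) had 2.57% in CD29, against 1.26%, 2.01% and 2.54%, and C5498T (COX1 I57I) had 2.24%, against 1.47% to 2.12%. These were the 4 alleles above the range, and the intervals of A11708G and C11260T (2.19 to 2.53) did not reach the next library's value, nor did that of C12428T in replicate 1, while that of T10913G did (2.42 to 2.72) and that of C5498T was not computed.

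The shared allele furthest below them in replicate 2 was C609T in mt-Rnr1, with 4.90% in CD29 (4.61 to 5.19), against 6.08%, 6.78% and 7.89% in the others. It was 1.95 percentage points under their mean and under every one of them. The next were both in the control region: A16099C had 3.51% in CD29, against 2.74%, 4.67% and 6.86%, and T16105G had 2.85%, against 3.02%, 3.72% and 4.62%.

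**Figure D3:**
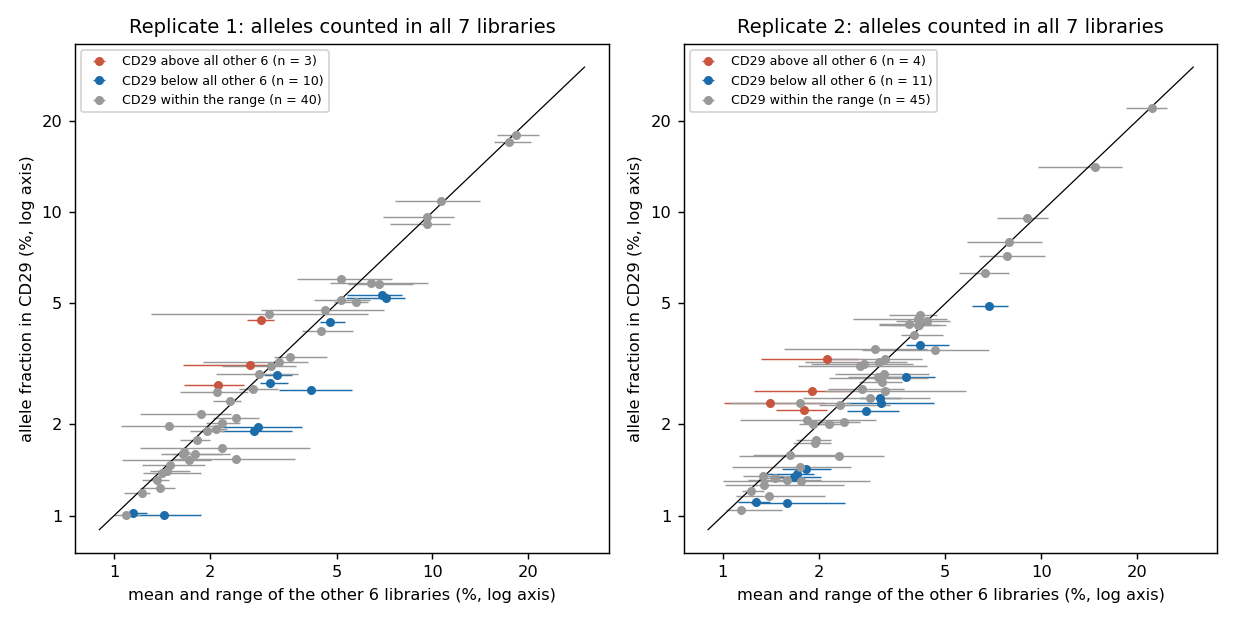
Allele fraction in CD29 (vertical, log axis) against the mean (points) and range (bars) of the other 6 libraries of the same replicate (horizontal, log axis), for alleles counted in all 7 libraries; the line marks equal values. Most points sit on or under the line, and 3 of 53 and 4 of 60 alleles lie above the range, against 10 and 11 below it.

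The control region held 18 of the 53 shared alleles of replicate 1 and 18 of the 60 of replicate 2, and 8 of the 11 alleles at which CD29 was lowest in replicate 2, with 3 of the 10 in replicate 1. The load of counted alleles there was 0.0545% in CD29, against 0.0547%, 0.0571% and 0.0674% in replicate 1, and 0.0473% in CD29, against 0.0503%, 0.0582% and 0.294% in replicate 2. CD29 was the lowest library both times, and the exact permutation p was 0.163 (adjusted p = 0.551 over 7 gene groups). The mean difference was -0.0271 percentage points with Thy replicate 2 and -0.00738 without it.

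These alleles were also what the CD29 replicates had in common. Of the 35 alleles counted in both CD29 libraries, 19 were in the control region, 6 in complex I genes, 5 in complex IV genes, 2 in transfer RNA genes, 1 in each of complex V and ribosomal RNA genes, and 1 outside these groups. The 17 control region alleles counted in all 14 libraries lay at positions 16099 to 16150 and were 7 T>A, 4 G>T, 3 C>A, 2 T>G and 1 A>C, with no transition among them. CD29 was under the median of the other 6 for 15 of the 17 in each replicate and for 13 in both. Over all shared alleles, which include these 17, CD29 was under the mean of the others for 40 of 53 and 39 of 60. The count under the median was not made for the other libraries, and the alleles of 1 library are not independent of each other. T16105A, as an example, had 2.73% in CD29, against 2.88%, 3.02% and 3.51% in replicate 1, and 2.44% in CD29, against 2.70%, 3.12% and 3.62% in replicate 2, the only one of the 17 under every other library both times. T16133A had 4.06% in CD29, against 3.91%, 4.30% and 5.62%, and 3.65% in CD29, against 3.77%, 3.96% and 5.14%. Whether the control region alleles found in every library are mutations of these mice was not tested, and the control region load and the 19 of 35 alleles rest on them.

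The alleles counted in CD29 and in none of the other 6 libraries of its replicate numbered 10, against 2, 39 and 167 in the other libraries of replicate 1. In replicate 2 there were 79 in CD29, against 9, 79 and 2375 in the others (exact permutation p = 0.796). The difference in the log2 number was -0.73, and -0.27 without Thy replicate 2. No allele was of this kind in both replicates. Of the 10, 9 lay under 1.5%, and 73 of the 79 did so, with a median of 1.17%. The fraction in CD29 was over 2 times that of the next library for 2 of the 10 and for 41 of the 79 (51.9%), and for the rest the next library was within 2 times of the CD29 value. In the other libraries the share over 2 times ran from 0% to 76.0% in replicate 1 and from 9.09% to 94.9% in replicate 2. CD29 lay within these ranges.

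T14833C, a missense change in CYTB (L230P), was the clearest in replicate 1. It had 1.92% in CD29 (1.84 to 1.995), against 0.175%, 0.284% and 0.526% in the others, 3.64 times the next library, and 0.237% in CD45. In replicate 2 it was 0.348% in CD29. T13817C (ND6 N85S) had 1.26% in CD29 with a highest value of 0.985% elsewhere, so its place depended on the threshold. C12581T (ND5 L280L) had 1.19% in CD29, against 0.156%, 0.385% and 0.533% in replicate 1, and 0.894% in CD29, against 0.304%, 0.444% and 0.579% in replicate 2, above every other fraction both times. The alleles A3608T (ND1 M286I), T12171C (ND5 W144R) and A1264G (mt-Rnr2) each had 1.05% in CD29, with highest values elsewhere of 0.774%, 0.914% and 0.707%. Their intervals in CD29 all included 1%, so their place also depended on the threshold.

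In replicate 2, T3200C, a synonymous ND1 change (L150L), had 2.07% in CD29 (1.91 to 2.25), against 0.254%, 0.445% and 0.734%, and 0.958% in CD45. T4659C (ND2 L249P) had 1.80% in CD29 (1.64 to 1.97), against 0.109%, 0.259% and 0.661%. A3795G, in the glutamine transfer RNA gene TrnQ, had 1.80%, against 0.150%, 0.530% and 0.641%. All 3 were well over the next library. T2556C (mt-Rnr2) had 1.75% in CD29, against 0.601%, 0.662% and 0.820%, T13725C (ND6 N116D) had 1.67%, against 0.416%, 0.789% and 0.980%, and A2774T (ND1 T8T) had 1.66%, against 0.226%, 0.755% and 0.958%. G12178A (ND5 G146E), named after its values were seen, had 1.50% in CD29, against at most 0.284% and a mean of 0.0812% in the others.

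Transitions made up most of these alleles. Of the 79, 67 were transitions (84.8%), with 27 T>C, 17 C>T, 15 A>G and 8 G>A, and 7 were A>T. T>C and A>G together made up 42 of the 79 (53.2%) and 6 of the 10 in replicate 1. Among the alleles counted in 1 other library alone, their share in replicate 1 ran from 0% of 2 in CD105 to 96.4% of 28 in 6C3, with 51.4% of 35 in CD24 and 46.7% of 167 in CD24_CD29. The share in replicate 2 ran from 0.337% of 2375 in Thy to 90.9% of 11 in 6C3, with 75.0% of 16 in CD24, 66.7% of 9 in CD105 and 39.9% of 276 in CD24_CD29. The CD29 shares lay within those of the other fractions in both replicates. By place, 35 of the 79 (44.3%) were in complex I genes, which hold 38.9% of the positions, and 15 (19.0%) in ribosomal RNA genes, which hold 15.6%. Complexes III and IV had 8 each (10.1%), with 7.02% and 18.5% of the positions, and transfer RNA genes had 6, complex V genes 4 and the control region 2. No test was run on these shares. By effect, 40 were missense, 14 synonymous and 1 a stop gain.

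**Figure D4:**
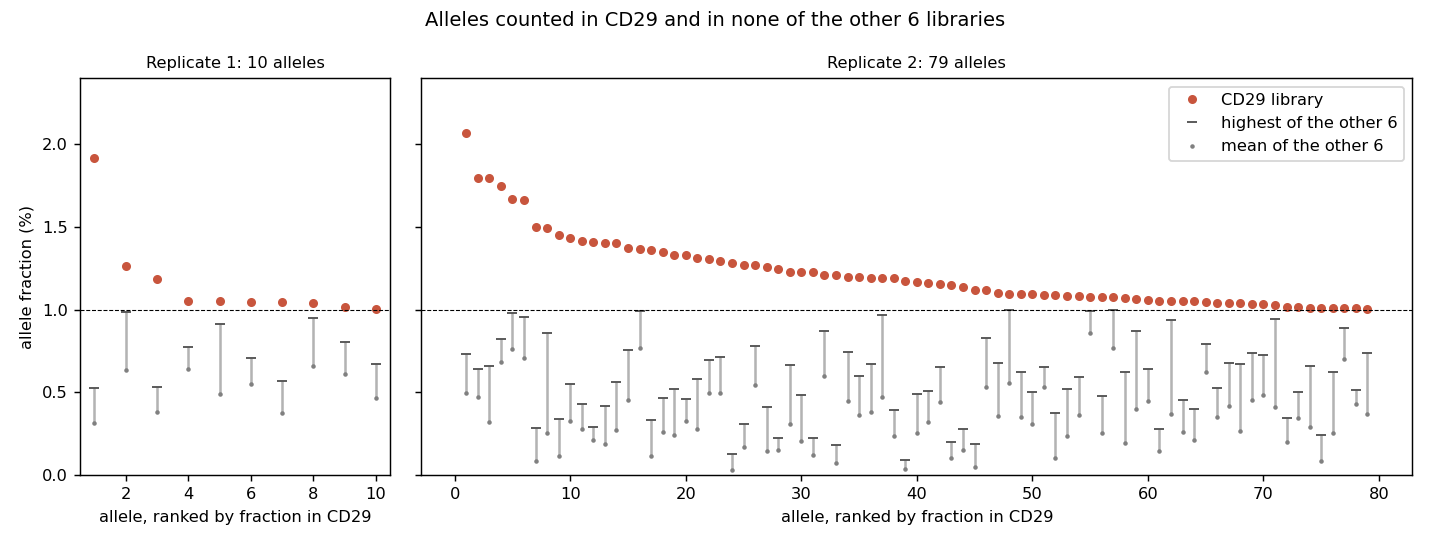
Alleles counted in CD29 and in none of the other 6 libraries of its replicate, ranked by their fraction in CD29 (points), with the mean (small dots) and highest (dashes) of the others; the dashed line is the 1% threshold. T14833C leads the 10 alleles of replicate 1 at 1.92% and T3200C the 79 of replicate 2 at 2.07%, while most lie between 1% and 1.5%.

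CD29 was above all other 6 libraries in both replicates for 18 of the 3475 alleles (0.518%) and below all of them in both for 80 (2.3%). Without Thy replicate 2, only 1115 alleles were counted in any library, and of these 19 were above all others in both (1.7%) and 17 below (1.52%). Of the 80, 44 were A>C and 19 T>G, classes that were high in that library. The 18 were 8 C>T, 4 T>C, 3 G>A, 2 A>G and 1 A>T. C10921T (ND4 P252L) had 0.998% and 1.09% in CD29 replicates 1 and 2, against at most 0.560% and 0.651% in the others. A10784T (ND4 K206N) had 0.338% and 1.04% in CD29, against at most 0.195% and 0.669%. C10789T and C12581T were the remaining alleles with the widest gaps upward. All 4 of these reached 1% in 1 CD29 library and in no other of the 14 libraries. They were thus among the 3475 only through CD29, which favours a higher value in CD29. Downward, A9243G (COX3 T213A) had 0.257% and 0.470% in CD29, against 0.392% to 0.825% and 0.595% to 1.06%, and C16095G in the control region had 0.571% and 0.208%, against 0.686% to 0.889% and 0.289% to 1.12%. T4203G (ND2 M97*) and T2951G (ND1 S67S) were the other alleles named by the gap downward.

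No single allele passed the test across all alleles. In edgeR's quasi-likelihood test of non-reference against reference counts, CD29 against the mean of the other 6 fractions with the replicate as a block, 0 of 3475 alleles (0%) had an adjusted p under 0.05, and the lowest adjusted p was 0.964. There were 51 at an unadjusted p under 0.05 (1.47%), 35 higher and 16 lower in CD29. With the same design DESeq2 called 0 alleles, with 86 at an unadjusted p under 0.05, and a quasi-binomial model called 0, with 123. Without Thy replicate 2, in a fit added after seeing the data, DESeq2 called 3 of 1115 alleles, all higher in CD29: C10921T with adjusted p = 0.0312, C10789T with adjusted p = 0.0401 and C12947T with adjusted p = 0.0430. The adjusted p of each reached 1 under another alternative. Each of the 3 reached 1% in CD29 replicate 2 and in no other of the 14 libraries. They thus entered the test only through a CD29 library, which favours a higher value in CD29.

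The alleles with the smallest p toward CD29 rested mostly on replicate 2. C1452T in mt-Rnr2 had 0.0231% in CD29, against 0% to 0.0206% in replicate 1, and 1.28% in CD29 (1.17 to 1.41), against 0% to 0.126% in replicate 2, with an edgeR log2 odds ratio of 4.30 ± 1.12 (SE). C12947T (ND5 C402C) had 0.423% in CD29, against 0.0463% to 0.351%, and 1.15% in CD29, against 0% to 0.198%, with an edgeR log2 odds ratio of 2.92 ± 0.80. C10789T (ND4 P208L) had 0.0969% in CD29, against 0% to 0.0592%, and 1.12% in CD29, against 0% to 0.189%, with an edgeR log2 odds ratio of 4.42 ± 1.24. All 3 were C>T changes above every other library in both replicates, and adjusted p in edgeR was 0.964 for each. They reached 1% in CD29 replicate 2 alone, so they were tested only through that library. For C1452T the replicate 1 value rested on 15 counts, and its interval (0.0129 to 0.0381) held the 0.0206% of the next library.

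Toward the other fractions, A1963C in mt-Rnr2 had 0.0471% and 0.0966% in CD29, against 0.107% to 0.593% and 0.0768% to 1.97%, with an edgeR log2 odds ratio of -1.87. C11030T (ND4 Y288Y) had 0.0427% and 0.00449% in CD29, against 0.0394% to 1.34% and 0% to 0.184%, with a log2 odds ratio of -2.72. A611C in mt-Rnr1 had 0.0919% and 0.0592% in CD29, against 0.104% to 0.340% and 0.136% to 1.43%, with a log2 odds ratio of -1.84. Adjusted p was 0.964 for each of them in edgeR, and the first 2 lay inside the range of the others in at least 1 replicate.

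The model was fitted to the same counts as the mean fractions, so its split by base change is not separate support for theirs. The median log2 odds ratio was 0.36 over 273 T>C alleles, of which 191 were positive, and 0.22 over 206 A>G alleles, of which 138 were positive, against -0.28 over all 3475. C>T had a median of 0.09. A>C had a median of -0.36, with 1386 of 1437 negative, and T>G of -0.34, and both classes were high in Thy replicate 2. Of the tested alleles, 1400 A>C and 744 T>G were counted in Thy alone among the libraries of replicate 2. In the same way, 27 T>C alleles were counted in CD29 alone in replicate 2 and 3 in replicate 1. The medians thus depend on which library brought an allele into the test, and they were not computed without Thy replicate 2. These are descriptions with no test of the class.

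Among the genes, counted alleles were spread over the genome. ND5, the longest complex I gene, held 12 and 22 in CD29 replicates 1 and 2, ND4 held 9 and 19, and mt-Rnr2 held 4 and 24. CYTB held 2 in CD29 replicate 1 and 16 in CD29 replicate 2, and its load of counted alleles was 0.00256% in CD29, against 0.00270% to 0.0297% in replicate 1, and 0.0206% in CD29, against 0.0110% to 0.229% in replicate 2. CYTB load in CD29 was thus the lowest of its set in replicate 1 and not in replicate 2. The same held for complex IV genes, at 0.00902% in CD29 replicate 1, against a lowest value of 0.00931% in the others. It also held for transfer RNA genes, at 0.0104%, against 0.0108%. Over the 7 gene groups the exact permutation p was 0.163 to 0.551, and adjusted p was 0.551 throughout.

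Of the 68 counted alleles in protein genes of CD29 replicate 1, 42 were missense, 24 synonymous and 2 stop gains, and of the 129 of CD29 replicate 2, 94 were missense, 31 synonymous and 4 stop gains. The exact permutation p for the shares of these 3 effects was 0.755 to 0.918, with an adjusted p of 0.918. The 2 stop gains of replicate 1 were G9775A (ND3 W106*), described above, and A13380T (ND5 K547*), at 1.36% in CD29, against 0.934% to 3.75%. In replicate 2 G9526A (ND3 W23*) had 3.53% in CD29, against 1.56% to 4.39%, and A15004G (CYTB K287*) had 1.39%, against 0.509% to 3.07%. C14019T (ND6 G18*) had 1.53% in CD29 and 1.58% in CD24_CD29, with at most 0.400% in the other 5. T4412A (ND2 W167*) had 1.05% in CD29 and at most 0.276% in the others. In replicate 2 the first 2 of these stop gains were thus shared with other fractions within their range, C14019T stood out in both fractions whose labels name CD29, and T4412A in CD29 alone. Replicate 1 did not show this. There C14019T had 0.182% in CD29, against 0.0642% to 0.179% in the others, with 0.160% in CD24_CD29. T4412A had 0.0913% in CD29, against 0.0732% to 0.167%.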

How the data were processed

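The authors deposited counts of each base and a coverage per mitochondrial position for every library. BWA 0.7.17, cutadapt 2.10, bcl2fastq 2.20 and the builds GRCm38 and mm10 are named per the submitters' processing notes, with no role or order; for quality filters and duplicate removal, the sources used here give nothing. Allele fractions, counted alleles (1% or more and at least 5 counts), loads and distances were computed from the deposited counts in Python 3.11.15, and genes were assigned from RefSeq with the vertebrate mitochondrial code. Measures per library were compared by exact two-sided permutation within the replicate number. Alleles were tested with edgeR 4.0.16 quasi-likelihood (library terms, fraction terms and replicate block, 6 residual degrees of freedom), with Benjamini-Hochberg adjustment over all alleles, and with DESeq2 1.42.0 as an alternative. The permutation test and edgeR were tried on simulated data, and DESeq2 was not. The numbers pair the libraries: deviations from fraction means correlated at 0.344 to 0.850 over all 21 pairs of fractions. Total depth limits precision as given by the intervals, which are exact Clopper-Pearson at 95%.

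Alleles were named by rule: the 3 with the smallest edgeR p in each direction, the 5 highest in each CD29 library, up to 6 counted in CD29 alone or in all but CD29, the 4 with the widest gap outside the range in both replicates in each direction, and the 3 shared alleles with the largest difference in each direction and replicate; other alleles were named after their values were seen. The members, lists and comparisons were chosen with earlier results of these data known.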

Additional observations from a re-analysis of the deposited data

Results flagged for a closer look

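Within the 7 libraries of a replicate, a library was marked when its gap to the nearest other passed Dixon's 95% critical value of 0.568, and chance marks about 1 in 20 groups. No CD29 library was marked. Thy replicate 2 was marked for load (1.11%), load of alleles at 1% or more (0.216%) and under 1% (0.898%), log2 allele number (11.30), transition share (3.79%) and distance to the other fractions (0.0614). By base change per 10000 it was marked for A>C (76.5), A>T (36.7), C>A (54.9), C>G (10.7), G>C (18.2), G>T (56.8), T>A (42.8) and T>G (66.5). By gene group it was marked for the load of complex I (0.248%), complex III (0.229%), complex IV (0.171%), complex V (0.220%), ribosomal RNA (0.174%), transfer RNA (0.182%) and the control region (0.294%). CD24_CD29 replicate 1 was marked for load in alleles from 1% upward (0.0327%), log2 allele number (8.13), distance (0.0228), and the load of complex I (0.0389%), complex III (0.0297%) and complex IV (0.0225%). 6C3 replicate 1 was marked for A>G (21.6 per 10000) and T>C (32.1 per 10000), the classes in which CD29 was next.

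In the CD45 libraries, which were left out of the comparison and entered only as an added alternative, 3 of the 79 alleles counted in CD29 replicate 2 and in none of the other 6 fractions were also at 1% or more in replicate 2. A2652T (mt-Rnr2) had 1.36% in CD29 and 1.204% in CD45, A8323G (ATP6 T133A) had 1.04% and 1.06%, and A3482G (ND1 G244G) had 1.01% and 1.03%.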

How the results depend on the processing

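The CD29 difference in depth was positive under every alternative run, from 1.12 to 1.74 with 1 library left out, but its exact permutation p was 0.286 without CD29 replicate 1, 0.143 without CD29 replicate 2 and 0.0556 without both Thy libraries. The difference in load turned to 0.0161 percentage points without both Thy libraries and to 0.00282 against the median of the others, and ran from -0.0834 to 0.0154 with 1 library left out; for alleles under 1% it was 0.0132 with a threshold of 0.5%, 0.0197, 0.00680, and -0.0492 to 0.0189. With 1 library left out the difference for alleles at 1% or more ran from -0.0342 to -0.00359, log2 allele number from -0.57 to -0.13, log2 number of alleles in 1 library from -1.53 to 0.0749, transition share from -5.16 to 18.5 percentage points and distance from -0.00674 to -0.00276. Among the shares by effect, synonymous turned to 1.31 and missense to -1.20 percentage points with a threshold of 0.5%, stop gain to 1.37 with 2%, 0.308 without both Thy libraries, and 0.147 against the median; with 1 library left out stop gain ran from -0.739 to 0.104 and synonymous from -2.46 to 0.457, each highest without a CD29 library. A>T turned to 0.390 per 10000 without both Thy libraries and ran from -2.57 to 0.184 with 1 library left out, G>A ran from -0.0648 to 0.440, and complex I load to 0.000241 against the median. For these reversals the cause was not tested. With a threshold of 0.5%, CD29 was above the range for 8 and 10 shared alleles and below it for 31 and 42 in replicates 1 and 2, and in both replicates above for 101 and below for 240 alleles; with 2% these were 1 and 0, 6 and 6, 3 and 8. Without Thy replicate 2, 17 alleles of the 1115 then counted were below the range in both. edgeR called 0 alleles under every alternative, 0 to 0 with 1 library left out (18 to 1237 at an unadjusted p under 0.05, the highest without Thy replicate 1), and DESeq2 without Thy replicate 2 called 3.

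Without the replicate block, edgeR called 0 alleles, with 27 at an unadjusted p under 0.05, against 51 with the block, and the exact permutation p for depth without the block was 0.0330. The pairing changed no call. Depth limits the precision of the shallowest fraction, CD24_CD29: the lowest coverage of any position in the 14 libraries was 2391 counts. The minimum of 5 counts did not decide which alleles were counted, as 1% of that coverage is more. With a minimum of 20 counts edgeR still tested 3475 alleles, with 51 at an unadjusted p under 0.05.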
